A study of Mus musculus with 8 samples.

Results

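The BMP and TGF-β signalling genes encode the secreted ligands of the family (BMPs, growth differentiation factors, TGF-βs and activin subunits), the proteins that store or release them, their type I and type II receptors, the Smad proteins that carry the signal, extracellular antagonists and the Id genes, which are targets of BMP signals. They were chosen by gene symbol. Of the 62 annotated mouse symbols that meet this rule, 56 are among the 15880 genes of the table, and the other 6 (*Bmp10*, *Gdf2*, *Gdf5*, *Gdf7*, *Gdf9* and *Gdf15*) are not in it and were not analysed here.

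A ligand of this family binds a pair of type I and a pair of type II receptor kinases, which phosphorylate receptor-regulated Smads that enter the nucleus with Smad4. BMPs signal mainly through Smad1, Smad5 and Smad9, and TGF-βs and activins through Smad2 and Smad3, while Smad6 and Smad7 limit both branches. BMPs are known for inducing bone and cartilage, and TGF-β, which is secreted in a latent complex and stored in bone matrix, for recruiting and restraining the cells that form bone.

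The study asked where the mesenchymal stem cells of developing bone marrow come from and what they do. For this it compared, among others, stromal cells of newborn bone marrow that carry a nestin reporter with their neighbours. *Nes-Gfp* heterozygous C57BL/6 pups at postnatal day 1 carry a GFP transgene driven by nestin regulatory elements, so GFP marks activity of these elements and not the endogenous gene itself. Cells from collagenase-digested, crushed bones were stained and sorted as CD45(-)CD31(-)Ter119(-), which removes blood, endothelial and erythroid cells, and were then divided by GFP and by surface Pdgfrα. All populations share genotype, strain and age, and no animal was treated. The 4 populations are GFP- Pdgfrα-, GFP+ Pdgfrα-, GFP- Pdgfrα+ and GFP+ Pdgfrα+ cells, with 2 libraries each and 8 in all. A library came from a pool of 3 pups and 15000 to 80000 sorted cells, and its total RNA was amplified to cDNA before sequencing.

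Replicate 1 is given before replicate 2 wherever 2 values of a population are listed. The reads on genes numbered 4058258 and 5302762 in GFP- Pdgfrα- , 3644103 and 3427644 in GFP+ Pdgfrα- , 3869275 and 3221217 in GFP- Pdgfrα+ and 3564158 and 3329432 in GFP+ Pdgfrα+ cells. A normalised value is the reads of a gene plus 0.5, per 1e6 of the effective library size, so 3 reads correspond to a value of 0.825 to 1.04 and a gene without reads to 0.118 to 0.149. Populations were compared on log2(value + 1), which understates differences of genes with low values, in a limma fit over all 15880 genes, and log2 differences are given ± SE. A gene was called at a Benjamini-Hochberg adjusted p-value of at most 0.05, calls were recomputed without each library in turn and under other settings (the range over these alternatives is that of limma or edgeR), and "rose" or "fell" is used for called genes. These p-values measure the spread between the 2 libraries of a population, which holds pool, sort and amplification together, and limma shares that spread between genes. Libraries with the same replicate number were taken to share a pool of pups, and the main fit treats all 8 libraries as independent. An exact two-sided permutation test of 2 libraries against 2 cannot give a p-value below 0.333. Folds are ratios of mean values. Against a population without reads of the gene, the fold is a lower bound taken at 3 reads per library. Where the lower population held 1 to 3 reads in both libraries together, a ratio of reads per effective library size is given instead. This ratio leaves out the added 0.5, so it differs from the ratio of mean values, and its exact 95% interval stands in parentheses. Bounds and intervals cover counting error only, since copies of 1 molecule can be read more than once. Positions are those of NCBIM37.

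The GFP- Pdgfrα- libraries stood apart from the other 6. Mitochondrial genes took 36.9% and 39.1% of their reads, against 24.2% and 22.2% in GFP+ Pdgfrα- cells and 13.0% to 14.5% in the 4 Pdgfrα+ libraries. The summed value of the erythroid markers in the table (6 of 7 listed) was 9247 and 15223 in GFP- Pdgfrα-, 109.5 and 62.5 in GFP+ Pdgfrα-, 40.3 and 35.0 in GFP- Pdgfrα+ and 31.2 and 37.4 in GFP+ Pdgfrα+ cells. Their most abundant gene in every library was *Hbb-b1*, with values of 4362 and 7619 in GFP- Pdgfrα- cells, although the Ter119 gate removes erythroid cells. Every comparison with GFP- Pdgfrα- cells therefore sets a stromal population against libraries rich in mitochondrial and erythroid reads, and the part of this in the results was not tested. Fewer cells of a type and less RNA per cell cannot be told apart in sorted bulk libraries.

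The sort labels were checked against their own genes. *Pdgfra* had values of 733 to 839 in the 4 Pdgfrα+ libraries and of 3.30 to 18.1 in the 4 Pdgfrα- libraries. *Nes* was 3.59 and 9.08 in GFP- Pdgfrα-, 149 and 176 in GFP+ Pdgfrα-, 27.4 and 47.1 in GFP- Pdgfrα+ and 57.6 and 72.0 in GFP+ Pdgfrα+ cells, so each GFP+ library was above each GFP- library with the same Pdgfrα status. *Ptprc*, which encodes CD45, had at most 11.3, in GFP- Pdgfrα- replicate 1. *Pecam1*, which encodes CD31, had at most 27.9, in GFP- Pdgfrα- replicate 2, and the Ter119 gene *Ly76* is not in the table.

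As a group, the members were lowest in GFP- Pdgfrα- cells and highest in Pdgfrα+ cells. Their summed value was 494 and 551 in GFP- Pdgfrα-, 2983 and 3203 in GFP+ Pdgfrα-, 7741 and 7188 in GFP- Pdgfrα+ and 6158 and 6074 in GFP+ Pdgfrα+ cells. The GFP- Pdgfrα- libraries are therefore the lowest and the GFP- Pdgfrα+ libraries the highest, with no overlap between populations. *Fstl1* alone contributed 3534 and 3036 to the sums of GFP- Pdgfrα+ cells and 2434 and 2451 to those of GFP+ Pdgfrα+ cells. By the median member the Pdgfrα+ populations overlap, at 32.5 and 30.9 in GFP- Pdgfrα+ and 32.3 and 27.6 in GFP+ Pdgfrα+ cells. By the mean of the libraries, 46 of the 56 members were lowest in GFP- Pdgfrα- cells, where 45.3% of all genes were lowest. The highest mean lay in GFP- Pdgfrα+ cells for 23 members, GFP+ Pdgfrα- cells for 15, GFP+ Pdgfrα+ cells for 15 and GFP- Pdgfrα- cells for 3, which are *Tgfb1*, *Gdf3* and *Bmp8b*. Over all genes the corresponding shares were 24.0%, 21.0%, 19.4% and 35.6%. A test of any difference among the 4 populations called 53 of the 56 members, against 66% of all genes. The exceptions were *Gdf1* (adjusted p = 0.0768), *Acvr1c* (adjusted p = 0.318) and *Bmp8b* (adjusted p = 0.846) in limma, named here after their values were seen.

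The comparison of GFP+ Pdgfrα+ with GFP- Pdgfrα+ cells asks what the nestin reporter separates among Pdgfrα+ stroma. It called 5 members higher and 5 lower in GFP+ Pdgfrα+ cells, where 3.22% of all genes were called higher and 2.13% lower. The median log2 difference of the members was -0.18, and that of all genes 0.00. The even split is that of the main fit. Limma voom called 6 higher and 9 lower (532 and 553 over all genes), and edgeR 5 and 7 (526 and 367). Limma without the mean-variance trend called 4 and 1 (334 and 198), and with a pseudocount of 0.1 it called 3 and 2 (391 and 204). Not every called member is described singly. Leaving out a library moved the count of called members, and that over all genes, 849. The member count was 3 without GFP- Pdgfrα+ replicate 1, 1 without GFP- Pdgfrα+ replicate 2, 2 without GFP+ Pdgfrα+ replicate 1 and 5 without GFP+ Pdgfrα+ replicate 2, with 306, 246, 350 and 517 over all genes, where a lone library is assumed to vary like the other populations. Without GFP+ Pdgfrα- replicate 1 or 2 it was 7 (633 and 628 over all genes), without GFP- Pdgfrα- replicate 1 or 2 it was 14 (1081 and 1083), and without both of these, an alternative chosen after seeing the data, it was 15 (1126).

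Among Pdgfrα- cells, GFP+ Pdgfrα- were compared with GFP- Pdgfrα- cells to see what the reporter separates where the receptor is absent from the surface. Here 41 members were higher and 3 lower in GFP+ Pdgfrα- cells, against 30.1% and 23.6% of all genes. The median log2 difference was 1.97 for the members (1.99 with bounded genes at their bounds) and 0.15 for all genes. With each library centred on its median, 38 members were higher and 5 lower, while the share of higher calls among all called genes went from 56.1% to 38.9%.

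The Pdgfrα split among GFP+ cells, GFP+ Pdgfrα+ against GFP+ Pdgfrα-, asks which genes separate the reporter-positive cells with and without this mesenchymal receptor. It called 23 members higher and 6 lower in GFP+ Pdgfrα+ cells, against 13.1% and 11.1% of all genes. Median log2 differences were 0.63 for the members (0.55 at the bounds) and -0.02 for all genes. With scaling without mitochondrial and erythroid genes, 22 members were higher and 7 lower, their median was 0.37, and the share of higher calls among all called genes went from 54.1% to 30.7%. This scaling uses the plain sum of the remaining reads and not the effective library size, so the left-out genes are not its only change. The same split among GFP- cells, GFP- Pdgfrα+ against GFP- Pdgfrα-, called 50 members higher and 2 lower, against 32.9% and 26.8% of all genes, with medians of 2.74 for the members, also at the bounds, and 0.17 for all genes. After centring it called 44 members higher and 2 lower, and the share of higher calls among all called genes went from 55.1% to 40.6%.

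The interaction is the GFP difference among Pdgfrα+ cells minus that among Pdgfrα- cells. It was called above 0 for 5 members and below 0 for 38, against 19.1% and 25.2% of all genes, with a median of -2.14 for the members and -0.16 for all genes. After centring, 6 members were above 0 and 35 below, and the share of calls above 0 among all genes went from 43.1% to 59.7%. The comparisons share libraries, so each is described by its own values. A low-value filter (a value over 2 in at least 2 libraries) leaves 52 of the 56 members, without *Bmp15*, *Bmp8b*, *Gdf1* and *Nog*; no such filter was applied to the counts above.

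**Figure D1:**
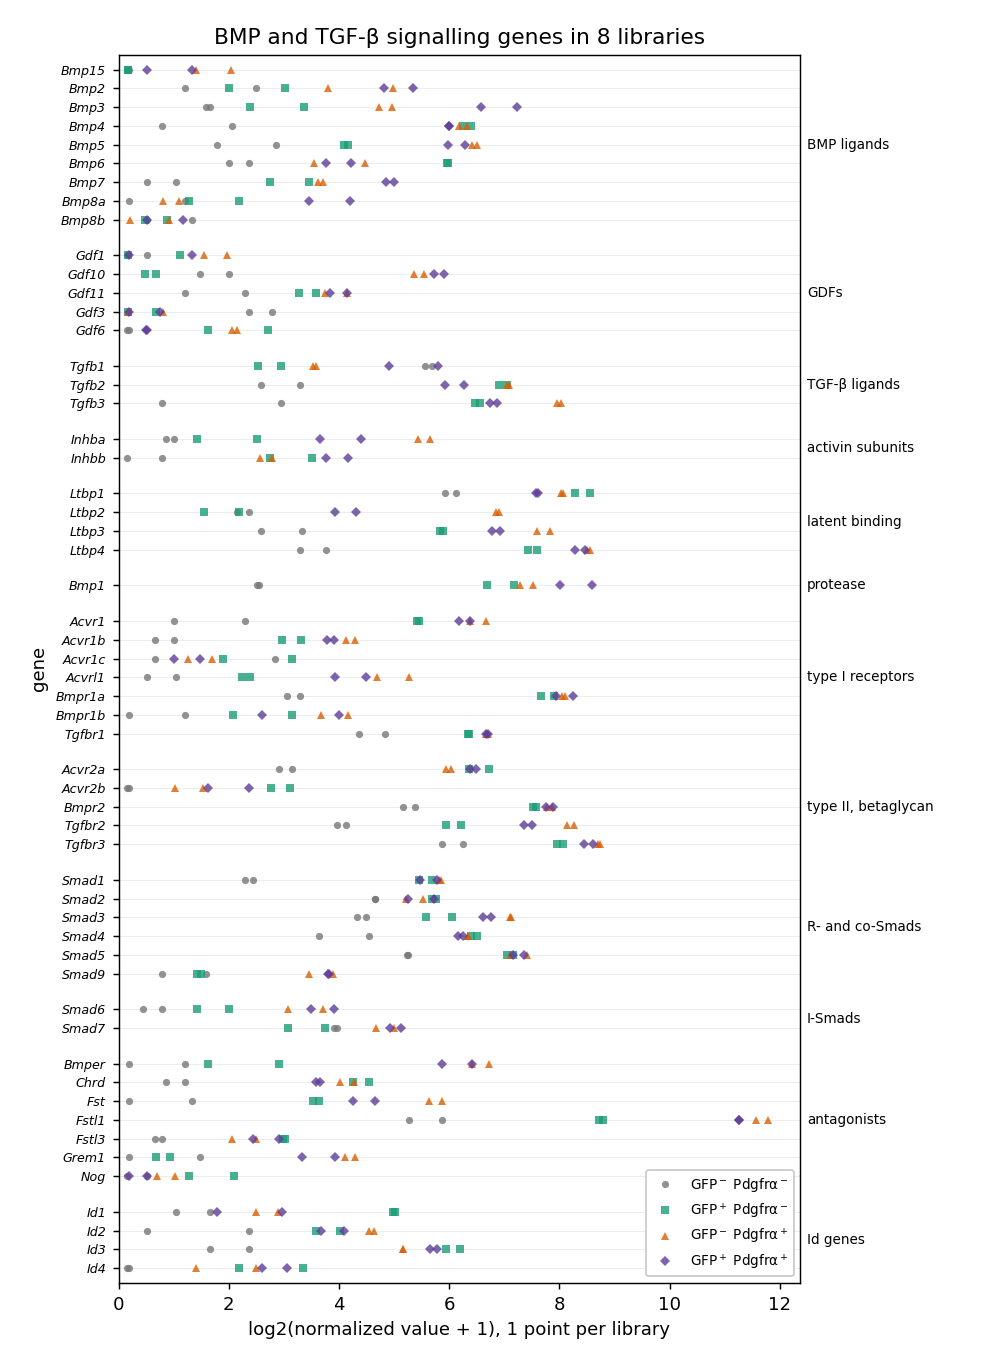
Normalised value of the members in each of the 8 libraries, without 1 member that is not drawn, on a log2(value + 1) axis, with a colour for each population and members ordered by role. The GFP- Pdgfrα- libraries lie lowest for most members, and *Tgfb1* is an exception, at 46.1 and 50.3.

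Markers of other cell types moved with the populations as well. Osteoblast markers (7 symbols, 8 identifiers, since *Runx2* has 2) summed to 549 and 669 in GFP- Pdgfrα-, 3862 and 3187 in GFP+ Pdgfrα-, 17305 and 15669 in GFP- Pdgfrα+ and 60766 and 44663 in GFP+ Pdgfrα+ cells, with *Col1a1* on top in every library. Pericyte and smooth muscle markers (8 of 8 in the table) summed to 78.7 and 137 in GFP- Pdgfrα-, 2321 and 2996 in GFP+ Pdgfrα-, 417 and 427 in GFP- Pdgfrα+ and 589 and 496 in GFP+ Pdgfrα+ cells, with *Rgs5* on top in GFP+ Pdgfrα- cells at 731 and 1035.

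Skeletal muscle markers (9 of 9) summed to 27.1 and 23.0 in GFP- Pdgfrα-, 712 and 727 in GFP+ Pdgfrα-, 28.6 and 22.7 in GFP- Pdgfrα+ and 52.6 and 63.4 in GFP+ Pdgfrα+ cells, and *Pax7* led them in GFP+ Pdgfrα- cells. Schwann cell lineage markers (7 of 7) summed to 23.4 and 38.6 in GFP- Pdgfrα-, 371 and 340.5 in GFP+ Pdgfrα-, 76.3 and 83.9 in GFP- Pdgfrα+ and 184 and 167 in GFP+ Pdgfrα+ cells, with *Erbb3* leading in GFP+ Pdgfrα- cells. Both lists were highest in the GFP+ Pdgfrα- libraries and had genes at 0 reads elsewhere, up to 2 of the 9 muscle markers (GFP- Pdgfrα+ replicate 2) and up to 2 of the 7 Schwann markers (GFP- Pdgfrα- and GFP- Pdgfrα+ replicate 2).

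Tendon markers (5 of 5) summed to 56.2 and 88.3 in GFP- Pdgfrα-, 18.6 and 19.9 in GFP+ Pdgfrα-, 1589 and 1677 in GFP- Pdgfrα+ and 182 and 156 in GFP+ Pdgfrα+ cells, with *Fmod* on top in every library, and were highest in GFP- Pdgfrα+ cells. Chondrocyte markers (7 of 7) summed to 561 and 986 in GFP- Pdgfrα-, 72.0 and 101 in GFP+ Pdgfrα-, 684 and 2141 in GFP- Pdgfrα+ and 317 and 413 in GFP+ Pdgfrα+ cells. Here the GFP- Pdgfrα+ libraries differed from each other, with *Col2a1* at 273 and 1498. Endothelial markers (8 of 8) summed to 59.5 and 171 in GFP- Pdgfrα-, 73.1 and 121 in GFP+ Pdgfrα-, 67.6 and 67.4 in GFP- Pdgfrα+ and 59.9 and 93.7 in GFP+ Pdgfrα+ cells, with *Tek*, *Cdh5* or *Vwf* on top. Blood markers (7 of 8) summed to 73.7 and 68.5 in GFP- Pdgfrα-, 32.7 and 31.5 in GFP+ Pdgfrα-, 26.3 and 12.9 in GFP- Pdgfrα+ and 5.94 and 21.7 in GFP+ Pdgfrα+ cells. *Lyz2* led the blood list in 6 libraries, *Cd68* and *Csf1r* in the GFP+ Pdgfrα+ libraries. The part of these cell types in the differences between populations was not tested.

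**Figure D2:**
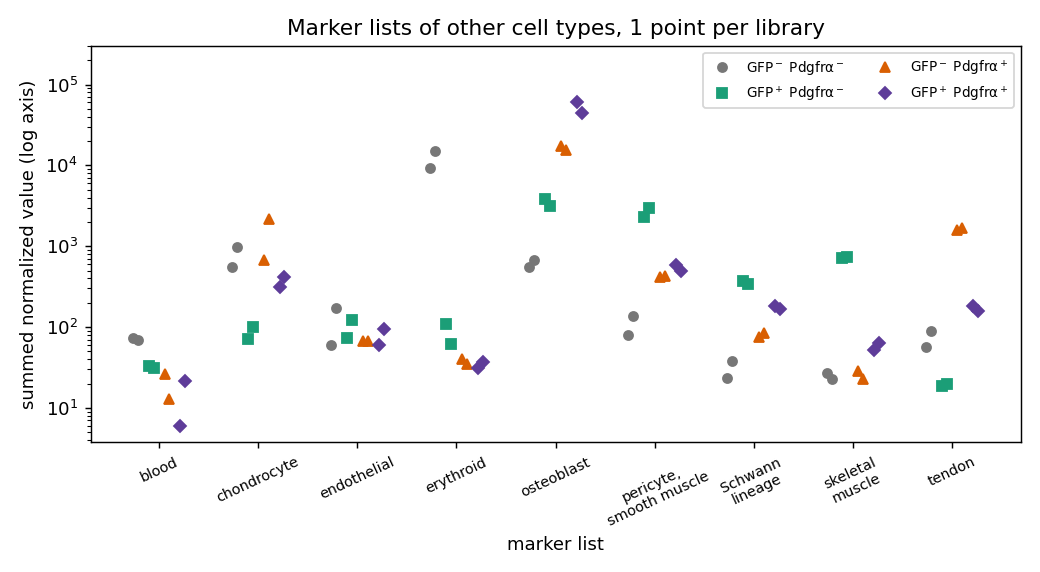
Summed normalised value of each list of cell type markers in each of the 8 libraries, on a log axis, with a colour for each population. Erythroid markers are highest in GFP- Pdgfrα- cells, osteoblast markers in GFP+ Pdgfrα+ cells, muscle, Schwann and pericyte markers in GFP+ Pdgfrα- cells and tendon markers in GFP- Pdgfrα+ cells.

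*Bmp3* (ENSMUSG00000029335, chromosome 5, 99283458 to 99309979, plus strand) encodes a BMP that restrains the osteogenic action of others. Its values were 2.15 and 2.00 in GFP- Pdgfrα-, 9.35 and 4.24 in GFP+ Pdgfrα-, 30.1 and 25.4 in GFP- Pdgfrα+ and 148 and 94.7 in GFP+ Pdgfrα+ cells. For *Bmp3*, the GFP+ Pdgfrα+ libraries are the highest and the GFP- Pdgfrα- libraries the lowest, and no populations overlap. *Bmp3* rose 17.9-fold from GFP+ Pdgfrα- to GFP+ Pdgfrα+ cells (log2 difference 4.02 ± 0.35, adjusted p = 7.06e-06). Between the Pdgfrα+ populations it was 4.37-fold higher in GFP+ Pdgfrα+ cells (log2 difference 2.06 ± 0.35, adjusted p = 0.00482). *Bmp3* lost this call without GFP- Pdgfrα+ replicate 2 (adjusted p = 0.0772) or GFP+ Pdgfrα+ replicate 1 (0.0751), with 0.000162 to 0.0772 over alternatives.

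*Bmp8a* (ENSMUSG00000032726, chromosome 4, 122989888 to 123020495, minus strand) encodes a BMP best known from the germ line, and its sequence is nearly identical to that of *Bmp8b*, so reads of the pair may be assigned to either. Its values were 0.144 and 1.30 in GFP- Pdgfrα-, 3.52 and 1.41 in GFP+ Pdgfrα-, 1.13 and 0.743 in GFP- Pdgfrα+ and 17.3 and 9.92 in GFP+ Pdgfrα+ cells. Only the GFP+ Pdgfrα+ libraries, of the 8, are above 4, and all other populations overlap or lie close together at low values. It was 14.5-fold higher in GFP+ Pdgfrα+ than GFP- Pdgfrα+ cells (log2 difference 2.87 ± 0.49, adjusted p = 0.00514). *Bmp8a* lost this call without GFP- Pdgfrα+ replicate 2 (adjusted p = 0.0716) or GFP+ Pdgfrα+ replicate 1 (0.0548), with 0.00299 to 0.0716 over alternatives. *Bmp8b* was at or under 1.53 in every library and was called in no comparison.

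*Bmp4* (ENSMUSG00000021835, chromosome 14, 47003195 to 47010344, minus strand), an osteogenic ligand required for limb and bone patterning, had values of 0.718 and 3.18 in GFP- Pdgfrα-, 82.9 and 75.2 in GFP+ Pdgfrα-, 78.5 and 71.4 in GFP- Pdgfrα+ and 62.8 and 62.8 in GFP+ Pdgfrα+ cells. For *Bmp4*, the GFP- Pdgfrα- libraries are the lowest, while the other 6 lie between 62.8 and 82.9. It was 40.5-fold higher in GFP+ Pdgfrα- than GFP- Pdgfrα- cells (log2 difference 4.90 ± 0.33, adjusted p = 1.26e-07) and 38.4-fold higher in GFP- Pdgfrα+ than GFP- Pdgfrα- cells (4.82, adjusted p = 9.21e-08). These log2 differences were 4.26 to 5.64 and 4.18 to 5.57 over alternatives. The differences of GFP+ Pdgfrα+ from GFP- Pdgfrα+ cells and from GFP+ Pdgfrα- cells did not pass the threshold (log2 difference -0.25 and -0.33 in limma).

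*Bmp5* (ENSMUSG00000032179, chromosome 9, 75623171 to 75748117, plus strand), a ligand that shapes skeletal elements such as the ear cartilage, had values of 2.44 and 6.25 in GFP- Pdgfrα-, 16.9 and 16.1 in GFP+ Pdgfrα-, 84.1 and 89.8 in GFP- Pdgfrα+ and 62.0 and 76.9 in GFP+ Pdgfrα+ cells. Both Pdgfrα+ populations lie above both Pdgfrα- populations in every library. *Bmp5* was 20.0-fold higher in GFP- Pdgfrα+ than GFP- Pdgfrα- cells (log2 difference 4.14 ± 0.30, adjusted p = 1.96e-07) and 4.22-fold higher in GFP+ Pdgfrα+ than GFP+ Pdgfrα- cells (2.00, adjusted p = 0.000532). *Bmp6* (ENSMUSG00000039004, chromosome 13, 38436995 to 38592183, plus strand), which is also the BMP that controls hepcidin, had values of 3.02 and 4.13 in GFP- Pdgfrα-, 61.1 and 62.4 in GFP+ Pdgfrα-, 10.7 and 21.2 in GFP- Pdgfrα+ and 17.5 and 12.5 in GFP+ Pdgfrα+ cells. For *Bmp6*, the GFP+ Pdgfrα- libraries stand above all others, and the Pdgfrα+ populations overlap. *Bmp6* fell 4.11-fold from GFP+ Pdgfrα- to GFP+ Pdgfrα+ cells (log2 difference -1.99 ± 0.33, adjusted p = 0.00103) and was 17.3-fold higher in GFP+ Pdgfrα- than GFP- Pdgfrα- cells (3.79, adjusted p = 1.32e-06). On the opposite strand, the exons of *Bmp5* share 1878 bases with *Gm16662*, and with other genes of the table *Acvr2a* shares 446 (*Orc4*), *Bmp6* 236 (*Txndc5*) and others, among them *Id4*, *Chrd*, *Bmp8b* and *Gdf1*, 66 to 171. With genes not in the table, *Fstl3* shares 1157 bases, *Ltbp2* 764 and 4 other members at most 290. The libraries were made with a DNA library kit from amplified and sonicated cDNA, and whether the strand was kept or used in counting is not stated. Reads on shared bases may therefore come from either gene.

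The remaining BMP ligands are *Bmp2*, *Bmp7* and *Bmp15*. *Bmp2* and *Bmp7* were higher in GFP+ Pdgfrα+ than GFP+ Pdgfrα- cells, with log2 differences of 2.56 and 1.83, and in GFP- Pdgfrα+ than GFP- Pdgfrα- cells, with 2.56 and 2.88. *Bmp2* lost its call against GFP+ Pdgfrα- cells without GFP+ Pdgfrα- replicate 1 (adjusted p = 0.0633), with 0.000878 to 0.0633 over alternatives. *Bmp15*, an oocyte ligand, had no reads in the Pdgfrα- libraries and at most 3.12 in the others.

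The 5 growth differentiation factors in the table had low values apart from *Gdf10* and *Gdf11*. *Gdf10* (ENSMUSG00000021943, chromosome 14, 34736773 to 34749700, plus strand), also called BMP3B, is related to BMP3 and was first described in bone. Its values were 3.02 and 1.77 in GFP- Pdgfrα-, 0.607 and 0.386 in GFP+ Pdgfrα-, 45.5 and 39.9 in GFP- Pdgfrα+ and 51.8 and 58.8 in GFP+ Pdgfrα+ cells. Both Pdgfrα+ populations lie far above both Pdgfrα- populations, and the GFP+ Pdgfrα- libraries are the lowest. In GFP+ Pdgfrα+ cells *Gdf10* was higher by a ratio of 147 (49.9 to 716) than in GFP+ Pdgfrα- cells (log2 difference 5.23 ± 0.32, adjusted p = 6.53e-07), where 3 reads were counted in all. It fell in GFP+ Pdgfrα- relative to GFP- Pdgfrα- cells, lower by a ratio of 5.87 (1.70 to 31.3) (log2 difference -1.16 ± 0.32, adjusted p = 0.00892). *Gdf10* lost this call without GFP- Pdgfrα- replicate 1 (adjusted p = 0.0654), with 0.000732 to 0.0654 over alternatives.

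*Gdf6* (ENSMUSG00000051279, chromosome 4, 9771519 to 9789492, plus strand), which is required for some joints and skull sutures, had values of 0.144 and 0.118 in GFP- Pdgfrα-, 2.06 and 5.53 in GFP+ Pdgfrα-, 3.15 and 3.42 in GFP- Pdgfrα+ and 0.414 and 0.431 in GFP+ Pdgfrα+ cells. It was present in the populations with only GFP or only Pdgfrα, without reads in GFP- Pdgfrα- cells and with 1 read in each GFP+ Pdgfrα+ library. *Gdf6* was lower by a ratio of 11.1 (2.75 to 97.4) in GFP+ Pdgfrα+ than GFP- Pdgfrα+ cells (log2 difference -1.59 ± 0.42, adjusted p = 0.0499). *Gdf6* lost this call without GFP- Pdgfrα- replicate 1 or 2 (adjusted p = 0.0632 and 0.0637), GFP- Pdgfrα+ replicate 1 or 2 (0.181 and 0.211) or GFP+ Pdgfrα+ replicate 1 or 2 (0.150 and 0.141), with 0.0353 to 0.211 over alternatives. The call was lost too without the trend (0.0579), with a pseudocount of 0.1 (0.0721), in voom (0.0834), in edgeR (0.111) and with scaling without mitochondrial and erythroid genes (0.0548). *Gdf6* was at least 4.15-fold higher in GFP+ Pdgfrα- than GFP- Pdgfrα- cells (log2 difference 1.98 ± 0.42, adjusted p = 0.00160).

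*Gdf3* (ENSMUSG00000030117, chromosome 6, 122555421 to 122560105, minus strand), a ligand of early embryos and pluripotent cells, had values of 5.89 and 4.13 in GFP- Pdgfrα-, 0.607 and 0.129 in GFP+ Pdgfrα-, 0.126 and 0.743 in GFP- Pdgfrα+ and 0.690 and 0.144 in GFP+ Pdgfrα+ cells. Only the GFP- Pdgfrα- libraries exceed 1, and the other 3 populations overlap at or under 3 reads per library. It was lower by a ratio of 19.2 (4.95 to 164) in GFP+ Pdgfrα- than GFP- Pdgfrα- cells (log2 difference -2.14 ± 0.41, adjusted p = 0.000796) and lower by a ratio of 17.6 (4.53 to 150.5) in GFP- Pdgfrα+ than GFP- Pdgfrα- cells (-2.08, adjusted p = 0.000816). *Gdf11* (ENSMUSG00000025352, chromosome 10, 128319351 to 128328774, minus strand), which patterns the axial skeleton, had values of 1.29 and 3.89 in GFP- Pdgfrα-, 8.62 and 10.9 in GFP+ Pdgfrα-, 12.5 and 16.8 in GFP- Pdgfrα+ and 16.7 and 13.4 in GFP+ Pdgfrα+ cells. For *Gdf11*, the GFP- Pdgfrα- libraries are the lowest, and the Pdgfrα+ populations overlap. *Gdf11* was 3.77-fold higher in GFP+ Pdgfrα- than GFP- Pdgfrα- cells (log2 difference 1.68 ± 0.40, adjusted p = 0.00340). *Gdf1* lies within the exons of *Lass1* on the same strand over 1401 bases, so its reads cannot be told apart from those of that gene. Its value was at most 2.90, and it was higher by a ratio of 17.9 (2.81 to 748) in GFP- Pdgfrα+ than GFP- Pdgfrα- cells (log2 difference 1.42 ± 0.47, adjusted p = 0.0207). *Gdf1* lost this call without GFP- Pdgfrα- replicate 2 (adjusted p = 0.111) or GFP- Pdgfrα+ replicate 1 (0.111), with 0.0105 to 0.124 over alternatives.

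The 3 TGF-β ligands had different patterns. *Tgfb1* (ENSMUSG00000002603, chromosome 7, 26472021 to 26490096, plus strand) encodes the isoform stored in bone matrix in the largest amounts and also made by blood cells and platelets. Its values were 46.1 and 50.3 in GFP- Pdgfrα-, 6.68 and 4.76 in GFP+ Pdgfrα-, 11 and 10.54 in GFP- Pdgfrα+ and 54.5 and 29.2 in GFP+ Pdgfrα+ cells. For *Tgfb1*, the GFP- Pdgfrα- libraries and GFP+ Pdgfrα+ replicate 1 are the highest, the GFP+ Pdgfrα- libraries are the lowest, and GFP+ Pdgfrα+ replicate 2 lies between GFP- Pdgfrα- and GFP- Pdgfrα+ cells. It was 3.89-fold higher in GFP+ Pdgfrα+ than GFP- Pdgfrα+ cells (log2 difference 1.80 ± 0.30, adjusted p = 0.00482). *Tgfb1* lost this call without GFP- Pdgfrα+ replicate 1 or 2 (adjusted p = 0.0511 and 0.0610) or GFP+ Pdgfrα+ replicate 1 (0.0571), with 0.00140 to 0.0610 over alternatives. *Tgfb1* fell in GFP+ Pdgfrα- relative to GFP- Pdgfrα- cells, 8.43-fold lower (log2 difference -2.89 ± 0.30, adjusted p = 6.26e-06), and in GFP- Pdgfrα+ relative to GFP- Pdgfrα- cells, 4.48-fold lower (-2.06, adjusted p = 8.11e-05). In GFP+ Pdgfrα+ cells it was 7.32-fold higher than in GFP+ Pdgfrα- cells (log2 difference 2.62 ± 0.30, adjusted p = 6.60e-05). Blood markers were highest in the same GFP- Pdgfrα- libraries, and their part in the result was not tested.

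*Tgfb2* (ENSMUSG00000039239, chromosome 1, 188447065 to 188529871, minus strand), the isoform tied to development of the heart, skull and neural crest derivatives, had values of 5.03 and 8.84 in GFP- Pdgfrα-, 119 and 131 in GFP+ Pdgfrα-, 132 and 134 in GFP- Pdgfrα+ and 59.5 and 76.3 in GFP+ Pdgfrα+ cells. For *Tgfb2*, the GFP- Pdgfrα- libraries are the lowest, GFP+ Pdgfrα- and GFP- Pdgfrα+ libraries are the highest and nearly level, and the GFP+ Pdgfrα+ libraries lie between. *Tgfb2* was 18.0-fold higher in GFP+ Pdgfrα- than GFP- Pdgfrα- cells (log2 difference 4.03 ± 0.23, adjusted p = 3.13e-08). It was 1.96-fold lower in GFP+ Pdgfrα+ than GFP- Pdgfrα+ cells (log2 difference -0.97 ± 0.23, adjusted p = 0.0276). *Tgfb2* lost this call without GFP+ Pdgfrα- replicate 1 or 2 (adjusted p = 0.0704 and 0.0710), GFP- Pdgfrα+ replicate 1 or 2 (0.166 and 0.179) or GFP+ Pdgfrα+ replicate 1 or 2 (0.179 and 0.0577), with 0.00189 to 0.179 over alternatives.

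*Tgfb3* (ENSMUSG00000021253, chromosome 12, 87397694 to 87419991, minus strand), the isoform needed for palate fusion and abundant in tendon and cartilage precursors, had values of 0.718 and 6.72 in GFP- Pdgfrα-, 87 and 93.3 in GFP+ Pdgfrα-, 259 and 248 in GFP- Pdgfrα+ and 115 and 107 in GFP+ Pdgfrα+ cells. For *Tgfb3*, the GFP- Pdgfrα+ libraries are the highest, the GFP- Pdgfrα- libraries are the lowest and differ from each other, and no populations overlap. It was 68.2-fold higher in GFP- Pdgfrα+ than GFP- Pdgfrα- cells (log2 difference 6.13 ± 0.47, adjusted p = 3.07e-07) and 24.2-fold higher in GFP+ Pdgfrα- than GFP- Pdgfrα- cells (4.64, adjusted p = 5.00e-06). Over alternatives these log2 differences went from 5.04 to 7.21 and from 3.56 to 5.73. Although both GFP+ Pdgfrα+ libraries are below both GFP- Pdgfrα+ libraries, this difference did not pass the threshold (log2 difference -1.19, adjusted p = 0.198). It passed in limma without GFP- Pdgfrα- replicate 1 or 2 (adjusted p = 0.000284 and 0.000438) or both (0.000130), in limma voom (0.000468) and in edgeR (0.0161), with 0.000130 to 0.482 over alternatives. Tendon markers were highest in the same GFP- Pdgfrα+ libraries, and their part in the result was not tested.

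Activins are dimers of inhibin β subunits, which *Inhba* and *Inhbb* encode. *Inhba* (ENSMUSG00000041324, chromosome 13, 16103684 to 16119044, plus strand) had values of 1.005 and 0.825 in GFP- Pdgfrα-, 4.73 and 1.67 in GFP+ Pdgfrα-, 49.3 and 42.0 in GFP- Pdgfrα+ and 20.0 and 11.6 in GFP+ Pdgfrα+ cells. For *Inhba*, the GFP- Pdgfrα+ libraries are the highest, followed by the GFP+ Pdgfrα+ libraries, and both Pdgfrα- populations are low. It was 49.9-fold higher in GFP- Pdgfrα+ than GFP- Pdgfrα- cells (log2 difference 4.60 ± 0.42, adjusted p = 1.34e-06) and 4.94-fold higher in GFP+ Pdgfrα+ than GFP+ Pdgfrα- cells (2.06, adjusted p = 0.00372). *Inhbb* (ENSMUSG00000037035, chromosome 1, 121312042 to 121318825, minus strand) had values of 0.718 and 0.118 in GFP- Pdgfrα-, 5.71 and 10.4 in GFP+ Pdgfrα-, 5.92 and 4.90 in GFP- Pdgfrα+ and 17.0 and 12.5 in GFP+ Pdgfrα+ cells. It is highest in the GFP+ Pdgfrα+ libraries and close to 0 reads in the GFP- Pdgfrα- libraries, and the GFP+ Pdgfrα- and GFP- Pdgfrα+ populations overlap. *Inhbb* was higher by a ratio of 30.4 (8.07 to 256) in GFP+ Pdgfrα- than GFP- Pdgfrα- cells (log2 difference 2.66 ± 0.42, adjusted p = 0.000172). Between the Pdgfrα+ populations neither subunit was called in limma, with log2 differences of -1.51 for *Inhba* and 1.29 for *Inhbb*, although both had an unadjusted p-value under 0.05. *Inhba* was called in limma with the replicate block (adjusted p = 0.0336) or without the GFP- Pdgfrα- population (0.0384), in limma voom (0.00395) and in edgeR (0.0189), with 0.00395 to 0.309 over alternatives.

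Latent TGF-β binding proteins tie the latent ligand to the matrix, and LTBP2 binds microfibrils but not TGF-β. *Ltbp2* (ENSMUSG00000002020, chromosome 12, 86124162 to 86217482, minus strand) had values of 4.16 and 3.42 in GFP- Pdgfrα-, 3.52 and 1.93 in GFP+ Pdgfrα-, 114 and 119 in GFP- Pdgfrα+ and 18.9 and 14.2 in GFP+ Pdgfrα+ cells. For *Ltbp2*, the GFP- Pdgfrα+ libraries stand far above all others, the GFP+ Pdgfrα+ libraries come next, and the Pdgfrα- populations overlap. *Ltbp2* was 7.02-fold lower in GFP+ Pdgfrα+ than GFP- Pdgfrα+ cells (log2 difference -2.75 ± 0.31, adjusted p = 0.000325), the largest fall of a member in this comparison on log2(value + 1), and the call was kept without any of the 8 libraries in turn. It was 30.7-fold higher in GFP- Pdgfrα+ than GFP- Pdgfrα- cells (log2 difference 4.62 ± 0.31, adjusted p = 8.25e-08). Tendon markers were higher in the same GFP- Pdgfrα+ libraries, and their part in the result was not tested.

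*Ltbp3* (ENSMUSG00000024940, chromosome 19, 5740904 to 5758532, plus strand), whose product binds all TGF-β isoforms and whose loss alters the skeleton, had values of 5.03 and 9.08 in GFP- Pdgfrα-, 55.7 and 58.3 in GFP+ Pdgfrα-, 226 and 192 in GFP- Pdgfrα+ and 120.3 and 109 in GFP+ Pdgfrα+ cells. No populations overlap. It was 29.7-fold higher in GFP- Pdgfrα+ than GFP- Pdgfrα- cells (log2 difference 4.75 ± 0.22, adjusted p = 4.08e-09). Against GFP- Pdgfrα+ cells, *Ltbp3* was 1.83-fold lower in GFP+ Pdgfrα+ cells (log2 difference -0.86 ± 0.22, adjusted p = 0.0469). *Ltbp3* lost this call without GFP+ Pdgfrα- replicate 1 or 2 (adjusted p = 0.0993 and 0.0997), GFP- Pdgfrα+ replicate 1 or 2 (0.299 and 0.156) or GFP+ Pdgfrα+ replicate 1 or 2 (0.136 and 0.193), with 0.00155 to 0.299 over alternatives.

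*Ltbp1* (ENSMUSG00000001870, chromosome 17, 75404908 to 75791852, plus strand), the prototype of the family, had values of 69.1 and 59.3 in GFP- Pdgfrα-, 312 and 375 in GFP+ Pdgfrα-, 267 and 260.3 in GFP- Pdgfrα+ and 191 and 193 in GFP+ Pdgfrα+ cells. It is highest in the GFP+ Pdgfrα- libraries and lowest in the GFP- Pdgfrα- libraries, and no populations overlap. *Ltbp1* fell 1.79-fold from GFP+ Pdgfrα- to GFP+ Pdgfrα+ cells (log2 difference -0.83 ± 0.14, adjusted p = 0.000954). *Ltbp4* (ENSMUSG00000040488, chromosome 7, 28090155 to 28122711, minus strand), which also serves elastic fibre assembly, had values of 8.76 and 12.6 in GFP- Pdgfrα-, 172 and 193 in GFP+ Pdgfrα-, 361 and 374 in GFP- Pdgfrα+ and 309 and 351 in GFP+ Pdgfrα+ cells. Both Pdgfrα+ populations are above both Pdgfrα- populations, and the GFP- Pdgfrα- libraries are the lowest. It was 34.4-fold higher in GFP- Pdgfrα+ than GFP- Pdgfrα- cells (log2 difference 5.0 ± 0.17, adjusted p = 2.65e-10) and 17.0-fold higher in GFP+ Pdgfrα- than GFP- Pdgfrα- cells (3.99, adjusted p = 3.11e-09).

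*Bmp1* (ENSMUSG00000022098, chromosome 14, 70874364 to 70920067, minus strand) encodes no ligand but a metalloprotease that trims procollagen and cleaves the BMP antagonist chordin. Its values were 4.74 and 4.83 in GFP- Pdgfrα-, 102 and 143 in GFP+ Pdgfrα-, 154 and 182 in GFP- Pdgfrα+ and 383 and 256 in GFP+ Pdgfrα+ cells. For *Bmp1*, the GFP+ Pdgfrα+ libraries are the highest and the GFP- Pdgfrα- libraries the lowest, and no populations overlap. *Bmp1* was 25.5-fold higher in GFP+ Pdgfrα- than GFP- Pdgfrα- cells (log2 difference 4.39 ± 0.22, adjusted p = 1.06e-08) and 2.61-fold higher in GFP+ Pdgfrα+ than GFP+ Pdgfrα- cells (1.37, adjusted p = 0.000680). Between the Pdgfrα+ populations it was 1.90-fold higher in GFP+ Pdgfrα+ cells (log2 difference 0.90 ± 0.22, adjusted p = 0.0315). *Bmp1* lost this call without GFP- Pdgfrα+ replicate 1 or 2 (adjusted p = 0.246 and 0.126) or GFP+ Pdgfrα+ replicate 1 (0.230), with 0.00701 to 0.246 over alternatives. Osteoblast markers were highest in the same GFP+ Pdgfrα+ libraries, and their part in the higher values of *Bmp1*, *Bmp3*, *Bmp8a* and *Tgfb1* was not tested.

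Type I receptors carry the kinase that phosphorylates Smads. None of the 7 was called between the Pdgfrα+ populations in limma (849 of 15880 genes) or edgeR, and 0 in limma and 1 in edgeR had an unadjusted p-value under 0.05. *Bmpr1a* (ENSMUSG00000021796, chromosome 14, 35223920 to 35316527, minus strand), the main BMP receptor of bone-forming cells, had values of 7.32 and 8.84 in GFP- Pdgfrα-, 238 and 202 in GFP+ Pdgfrα-, 265 and 273 in GFP- Pdgfrα+ and 245 and 303 in GFP+ Pdgfrα+ cells. For *Bmpr1a*, the GFP- Pdgfrα- libraries are the lowest, and the GFP+ Pdgfrα+ and GFP- Pdgfrα+ populations overlap. It was 27.2-fold higher in GFP+ Pdgfrα- than GFP- Pdgfrα- cells (log2 difference 4.60 ± 0.16, adjusted p = 8.88e-10) and 33.3-fold higher in GFP- Pdgfrα+ than GFP- Pdgfrα- cells (4.90, adjusted p = 2.19e-10). *Tgfbr1* (ENSMUSG00000007613, chromosome 4, 47366094 to 47427803, plus strand), the TGF-β receptor also called ALK5, had values of 27.4 and 19.7 in GFP- Pdgfrα-, 80.5 and 81.4 in GFP+ Pdgfrα-, 101 and 103 in GFP- Pdgfrα+ and 103 and 101 in GFP+ Pdgfrα+ cells. Its GFP- Pdgfrα+ and GFP+ Pdgfrα+ libraries overlap, and the GFP- Pdgfrα- libraries are the lowest. It was 3.44-fold higher in GFP+ Pdgfrα- than GFP- Pdgfrα- cells (log2 difference 1.76 ± 0.17, adjusted p = 3.76e-06).

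Of the other type I receptors, *Acvr1*, *Acvr1b*, *Acvrl1*, which endothelial cells use for BMP9, and *Bmpr1b* were higher in GFP+ Pdgfrα- than GFP- Pdgfrα- cells, with log2 differences of 1.54 to 3.78, and in GFP- Pdgfrα+ than GFP- Pdgfrα- cells, with 3.22 to 4.87. *Bmpr1b* lost its call in GFP+ Pdgfrα- cells without GFP- Pdgfrα- replicate 1 (adjusted p = 0.0886) or GFP+ Pdgfrα- replicate 1 (0.131), with 0.00700 to 0.131 over alternatives. With quantile normalization *Acvrl1* lost that call (log2 difference 0.83, adjusted p = 0.0849, with 0.00210 to 0.0849 over alternatives). *Acvr1c* was called in no comparison with all libraries but was higher in GFP+ Pdgfrα- than GFP- Pdgfrα- cells without GFP- Pdgfrα- replicate 1 (adjusted p = 0.0259, with 0.0259 to 0.918 over alternatives), and its libraries differed within populations, at 6.18 and 0.590 in GFP- Pdgfrα- and 7.89 and 2.70 in GFP+ Pdgfrα- cells.

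Type II receptors are constitutively active kinases, and betaglycan, the product of *Tgfbr3*, presents TGF-β2 and inhibin to them. *Tgfbr3* (ENSMUSG00000029287, chromosome 5, 107535589 to 107718648, minus strand) had values of 57.3 and 74.9 in GFP- Pdgfrα-, 249 and 266 in GFP+ Pdgfrα-, 425 and 417 in GFP- Pdgfrα+ and 347 and 391 in GFP+ Pdgfrα+ cells. For *Tgfbr3*, the GFP- Pdgfrα+ libraries are the highest and the GFP- Pdgfrα- libraries the lowest, without overlap between populations. *Tgfbr3* was 6.37-fold higher in GFP- Pdgfrα+ than GFP- Pdgfrα- cells (log2 difference 2.67 ± 0.14, adjusted p = 1.32e-08) and 1.44-fold higher in GFP+ Pdgfrα+ than GFP+ Pdgfrα- cells (0.52, adjusted p = 0.0211). *Tgfbr3* lost that call without GFP+ Pdgfrα- replicate 1 or 2 (adjusted p = 0.137 and 0.0743) or GFP+ Pdgfrα+ replicate 2 (0.132), with 0.00449 to 0.289 over alternatives. It was also lost without the trend (0.138) and with scaling without mitochondrial and erythroid genes (0.289 at a log2 difference of 0.21). *Bmpr2* (ENSMUSG00000067336, chromosome 1, 59821481 to 59927703, plus strand), the BMP type II receptor, had values of 34.6 and 40.4 in GFP- Pdgfrα-, 181 and 188 in GFP+ Pdgfrα-, 217 and 231 in GFP- Pdgfrα+ and 236 and 216 in GFP+ Pdgfrα+ cells. Its GFP- Pdgfrα- libraries are the lowest, and the GFP- Pdgfrα+ and GFP+ Pdgfrα+ populations overlap. *Bmpr2* was 4.93-fold higher in GFP+ Pdgfrα- than GFP- Pdgfrα- cells (log2 difference 2.27 ± 0.14, adjusted p = 4.98e-08).

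*Tgfbr2* (ENSMUSG00000032440, chromosome 9, 115993415 to 116084383, minus strand), the TGF-β type II receptor, is the fifth member that was lower in GFP+ Pdgfrα+ than GFP- Pdgfrα+ cells and is named for that after its values were seen. Its values were 16.5 and 14.5 in GFP- Pdgfrα-, 60.1 and 73.2 in GFP+ Pdgfrα-, 305 and 282 in GFP- Pdgfrα+ and 180.2 and 163 in GFP+ Pdgfrα+ cells. Every GFP- Pdgfrα+ library is above every GFP+ Pdgfrα+ library, and both are above the Pdgfrα- populations. It was 1.71-fold lower in GFP+ Pdgfrα+ than GFP- Pdgfrα+ cells (log2 difference -0.77 ± 0.16, adjusted p = 0.0137). *Tgfbr2* lost this call without GFP- Pdgfrα+ replicate 1 or 2 (adjusted p = 0.145 and 0.0943) or GFP+ Pdgfrα+ replicate 1 or 2 (0.0593 and 0.0953), with 0.00115 to 0.145 over alternatives. It was 18.9-fold higher in GFP- Pdgfrα+ than GFP- Pdgfrα- cells (log2 difference 4.16 ± 0.16, adjusted p = 7.27e-10). Both remaining type II receptors were higher in GFP+ Pdgfrα- than GFP- Pdgfrα- cells, *Acvr2a* 12.9-fold and *Acvr2b* at least 7.34-fold.

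Of the 6 receptor-regulated and common Smads, none was called between the Pdgfrα+ populations in limma (849 of 15880 genes) or edgeR, and 1 in limma and 1 in edgeR had an unadjusted p-value under 0.05. *Smad3* (ENSMUSG00000032402, chromosome 9, 63494574 to 63605801, minus strand), a TGF-β and activin mediator, had values of 19.1 and 21.3 in GFP- Pdgfrα-, 46.5 and 65 in GFP+ Pdgfrα-, 137 and 138 in GFP- Pdgfrα+ and 107 and 96.4 in GFP+ Pdgfrα+ cells. For *Smad3*, the GFP- Pdgfrα+ libraries are the highest, then GFP+ Pdgfrα+, GFP+ Pdgfrα- and GFP- Pdgfrα-, with no overlap. It was 6.80-fold higher in GFP- Pdgfrα+ than GFP- Pdgfrα- cells (log2 difference 2.71 ± 0.18, adjusted p = 8.92e-08) and 1.83-fold higher in GFP+ Pdgfrα+ than GFP+ Pdgfrα- cells (0.87, adjusted p = 0.00425). *Smad3* lost that call without GFP+ Pdgfrα- replicate 1 (adjusted p = 0.0558), with 0.00166 to 0.0558 over alternatives. *Smad5* (ENSMUSG00000021540, chromosome 13, 56804371 to 56843738, plus strand), a BMP mediator, had values of 36.6 and 37.1 in GFP- Pdgfrα-, 141 and 131 in GFP+ Pdgfrα-, 169 and 136 in GFP- Pdgfrα+ and 142 and 162 in GFP+ Pdgfrα+ cells. For *Smad5*, the GFP- Pdgfrα- libraries are the lowest, and the GFP- Pdgfrα+ and GFP+ Pdgfrα+ populations overlap. *Smad5* was 3.69-fold higher in GFP+ Pdgfrα- than GFP- Pdgfrα- cells (log2 difference 1.85 ± 0.15, adjusted p = 7.41e-07).

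*Smad1*, *Smad2* and the common *Smad4* were also higher in GFP+ Pdgfrα- than GFP- Pdgfrα- cells, with log2 differences of 1.06 to 3.20, while *Smad9* was not called there. All of these and *Smad9* were higher in GFP- Pdgfrα+ than GFP- Pdgfrα- cells, with 0.72 to 3.46. *Smad2* lost that call without GFP- Pdgfrα+ replicate 1 (adjusted p = 0.0962), with 0.00705 to 0.288 over alternatives. *Smad9* was the other member of the group, besides *Smad3*, that was higher in GFP+ Pdgfrα+ than GFP+ Pdgfrα- cells (7.42-fold higher, log2 difference 2.35, adjusted p = 0.00114).

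The inhibitory Smads are induced by the signals they limit. *Smad7* (ENSMUSG00000025880, chromosome 18, 75527183 to 75555589, plus strand), which acts on both branches, had values of 13.9 and 14.5 in GFP- Pdgfrα-, 7.41 and 12.5 in GFP+ Pdgfrα-, 24.6 and 31.0 in GFP- Pdgfrα+ and 33.8 and 29.5 in GFP+ Pdgfrα+ cells. The Pdgfrα+ libraries are all above the Pdgfrα- libraries, the GFP+ Pdgfrα+ and GFP- Pdgfrα+ populations overlap, and the GFP+ Pdgfrα- libraries are the lowest. It was 3.18-fold higher in GFP+ Pdgfrα+ than GFP+ Pdgfrα- cells (log2 difference 1.61 ± 0.28, adjusted p = 0.00122) and 1.96-fold higher in GFP- Pdgfrα+ than GFP- Pdgfrα- cells (0.91, adjusted p = 0.0132). *Smad7* lost that call without GFP- Pdgfrα+ replicate 2 (adjusted p = 0.105), with 0.00818 to 0.171 over alternatives. *Smad6* (ENSMUSG00000036867, chromosome 9, 63800953 to 63869866, minus strand), which prefers the BMP branch, had values of 0.718 and 0.354 in GFP- Pdgfrα-, 3.04 and 1.67 in GFP+ Pdgfrα-, 7.44 and 12 in GFP- Pdgfrα+ and 13.9 and 10.2 in GFP+ Pdgfrα+ cells. It is likewise higher in all Pdgfrα+ libraries. *Smad6* was 5.13-fold higher in GFP+ Pdgfrα+ than GFP+ Pdgfrα- cells (log2 difference 1.98 ± 0.41, adjusted p = 0.00440). *Smad6* lost this call without GFP+ Pdgfrα- replicate 2 (adjusted p = 0.0532), with 0.00368 to 0.0532 over alternatives.

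Secreted antagonists and modulators bind the ligands outside the cell. *Fstl1* (ENSMUSG00000022816, chromosome 16, 37776959 to 37836600, plus strand), a follistatin-like glycoprotein that modulates BMP signals, had values of 37.5 and 57.7 in GFP- Pdgfrα-, 418 and 444 in GFP+ Pdgfrα-, 3534 and 3036 in GFP- Pdgfrα+ and 2434 and 2451 in GFP+ Pdgfrα+ cells. For *Fstl1*, the GFP- Pdgfrα+ libraries are the highest and the GFP- Pdgfrα- libraries the lowest, without overlap between populations. It was 69.1-fold higher in GFP- Pdgfrα+ than GFP- Pdgfrα- cells (log2 difference 6.11 ± 0.17, adjusted p = 8.83e-11) and 5.67-fold higher in GFP+ Pdgfrα+ than GFP+ Pdgfrα- cells (2.50, adjusted p = 1.32e-06).

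*Bmper* (ENSMUSG00000031963, chromosome 9, 23027520 to 23289646, plus strand), whose product binds BMPs and can block or promote their action, had values of 0.144 and 1.30 in GFP- Pdgfrα-, 2.06 and 6.56 in GFP+ Pdgfrα-, 84.6 and 105 in GFP- Pdgfrα+ and 57.3 and 84.4 in GFP+ Pdgfrα+ cells. Both Pdgfrα+ populations stand far above both Pdgfrα- populations. *Bmper* was 131-fold higher in GFP- Pdgfrα+ than GFP- Pdgfrα- cells (log2 difference 5.87 ± 0.44, adjusted p = 2.43e-07) and 16.4-fold higher in GFP+ Pdgfrα+ than GFP+ Pdgfrα- cells (3.87, adjusted p = 6.20e-05). The first fold rests on 0 and 5 reads in the GFP- Pdgfrα- libraries. Over alternatives these log2 differences were 5.37 to 7.68 and 3.22 to 4.53.

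*Nog* (ENSMUSG00000048616, chromosome 11, 89161952 to 89163873, minus strand) encodes noggin, which sequesters BMPs. Its values were 0.431 and 0.118 in GFP- Pdgfrα-, 3.28 and 1.41 in GFP+ Pdgfrα-, 0.630 and 1.04 in GFP- Pdgfrα+ and 0.138 and 0.431 in GFP+ Pdgfrα+ cells. For *Nog*, the GFP+ Pdgfrα- libraries are the highest, with few reads, and the other populations are at or under 3 reads per library. *Nog* was lower by a ratio of 16 (2.52 to 665) in GFP+ Pdgfrα+ than GFP+ Pdgfrα- cells (log2 difference -1.33 ± 0.40, adjusted p = 0.0293). *Nog* lost this call without GFP+ Pdgfrα- replicate 1 (adjusted p = 0.197) or GFP+ Pdgfrα+ replicate 1 or 2 (0.112 and 0.0533), with 0.0154 to 0.197 over alternatives. It was higher by a ratio of 17.4 (2.74 to 723) in GFP+ Pdgfrα- than GFP- Pdgfrα- cells (log2 difference 1.35 ± 0.40, adjusted p = 0.0127). *Nog* lost that call without GFP- Pdgfrα- replicate 2 (adjusted p = 0.0907) or GFP+ Pdgfrα- replicate 1 (0.101), with 0.00878 to 0.130 over alternatives.

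Of the other antagonists, *Chrd*, *Fst* and *Fstl3* were higher in GFP+ Pdgfrα- than GFP- Pdgfrα- cells, with log2 differences of 2.27 to 3.37, and with *Grem1* they were higher in GFP- Pdgfrα+ than GFP- Pdgfrα- cells, with 1.55 to 4.98. With quantile normalization *Fstl3* lost the latter call (log2 difference 0.88, adjusted p = 0.0660, with 0.00135 to 0.0660 over alternatives). *Grem1* was also higher in GFP+ Pdgfrα+ than GFP+ Pdgfrα- cells (15.4-fold higher, log2 difference 2.82, adjusted p = 0.000918) and had at most 7 reads in each Pdgfrα- library.

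The Id genes encode inhibitors of basic helix-loop-helix factors and are direct targets of BMP-activated Smads. All 4 were higher in GFP+ Pdgfrα- than GFP- Pdgfrα- cells and in GFP- Pdgfrα+ than GFP- Pdgfrα- cells (30.1% and 32.9% of all genes), none was called between the Pdgfrα+ populations in limma (849 of 15880 genes) or edgeR, and 0 in limma and 1 in edgeR had an unadjusted p-value under 0.05. *Id1* (ENSMUSG00000042745, chromosome 2, 152561987 to 152563146, plus strand) had values of 2.15 and 1.06 in GFP- Pdgfrα-, 31.2 and 30.5 in GFP+ Pdgfrα-, 6.43 and 4.60 in GFP- Pdgfrα+ and 6.77 and 2.44 in GFP+ Pdgfrα+ cells. For *Id1*, the GFP+ Pdgfrα- libraries are the highest by far, the GFP- Pdgfrα- libraries are the lowest, and the Pdgfrα+ populations overlap. It fell 6.70-fold from GFP+ Pdgfrα- to GFP+ Pdgfrα+ cells (log2 difference -2.62 ± 0.44, adjusted p = 0.00104). In GFP+ Pdgfrα- cells it was 19.2-fold higher than in GFP- Pdgfrα- cells (log2 difference 3.64 ± 0.44, adjusted p = 2.06e-05), and in GFP- Pdgfrα+ cells 3.43-fold higher than in GFP- Pdgfrα- cells (1.34, adjusted p = 0.0194). *Id1* lost that call without GFP- Pdgfrα- replicate 2 (adjusted p = 0.116) or GFP- Pdgfrα+ replicate 1 (0.116), with 0.00832 to 0.252 over alternatives.

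*Id3* (ENSMUSG00000007872, chromosome 4, 135699412 to 135701670, plus strand) had values of 2.15 and 4.13 in GFP- Pdgfrα-, 60.8 and 72.4 in GFP+ Pdgfrα-, 34.9 and 34.9 in GFP- Pdgfrα+ and 53.7 and 49.0 in GFP+ Pdgfrα+ cells. It too is highest in the GFP+ Pdgfrα- libraries, and no populations overlap. *Id3* was 21.2-fold higher in GFP+ Pdgfrα- than GFP- Pdgfrα- cells (log2 difference 4.07 ± 0.25, adjusted p = 7.10e-08). *Id2* (ENSMUSG00000020644, chromosome 12, 25778666 to 25780957, minus strand) had values of 0.431 and 4.13 in GFP- Pdgfrα-, 15.2 and 10.9 in GFP+ Pdgfrα-, 23.8 and 22.4 in GFP- Pdgfrα+ and 11.7 and 16 in GFP+ Pdgfrα+ cells. For *Id2*, the GFP- Pdgfrα+ libraries are the highest, GFP+ Pdgfrα- and GFP+ Pdgfrα+ overlap, and the GFP- Pdgfrα- libraries are the lowest and differ from each other. It was 5.73-fold higher in GFP+ Pdgfrα- than GFP- Pdgfrα- cells (log2 difference 2.36 ± 0.49, adjusted p = 0.00152). Without replicate 1 of the GFP- Pdgfrα- cells the log2 difference was 1.44 and *Id2* was still called (adjusted p = 0.00646 in limma, 2.69e-05 to 0.0266 over alternatives in limma or edgeR). *Id4* had no reads in the GFP- Pdgfrα- libraries and was at least 6.91-fold higher in GFP+ Pdgfrα- cells. *Id4* lost its call in GFP- Pdgfrα+ cells without GFP- Pdgfrα+ replicate 1 (adjusted p = 0.0999), with 0.00129 to 0.0999 over alternatives. Pericyte, muscle and Schwann markers were highest in the same GFP+ Pdgfrα- libraries as *Id1* and *Id3*, and their part in these values was not tested.

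**Figure D3:**
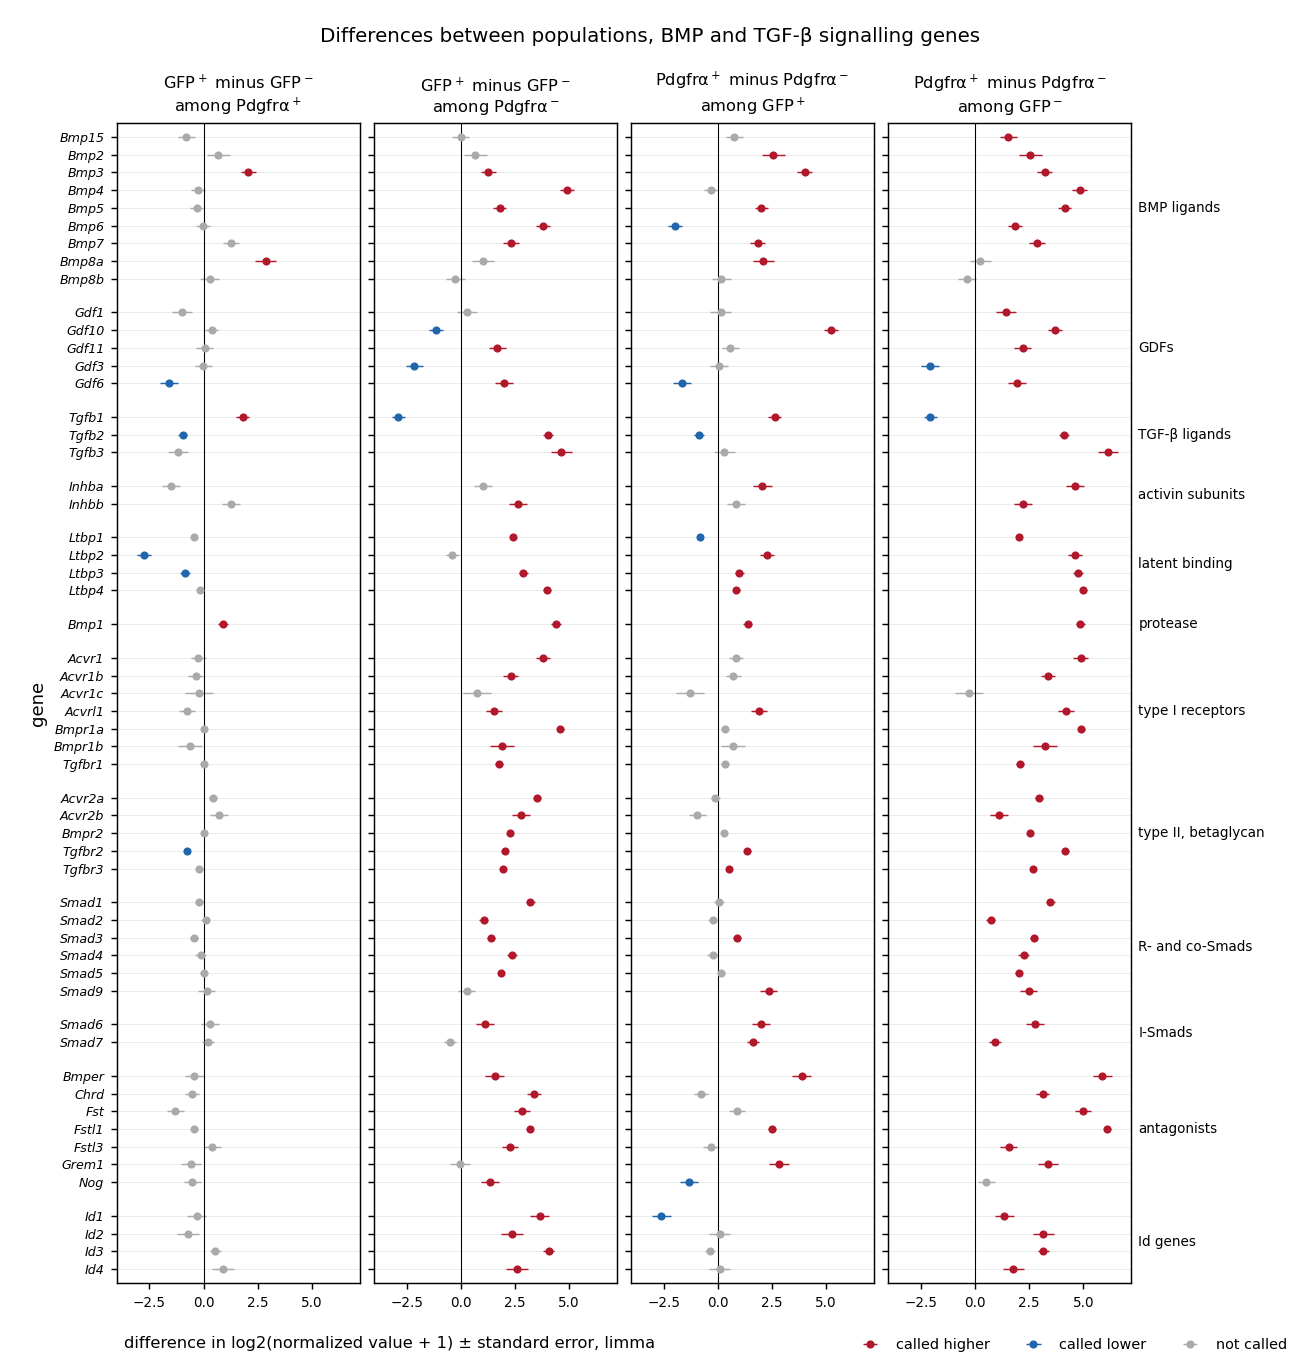
Log2 difference of the members in the 4 comparisons, without 1 member that is not drawn, with limma standard errors as bars, members called higher in red, called lower in blue and not called in grey, ordered by role. Called members lie on both sides of 0 between the Pdgfrα+ populations and mostly above 0 in the comparisons with GFP- Pdgfrα- cells, as for 41 of the 44 called in GFP+ Pdgfrα- cells.

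Other genes of the pathways were taken from a fixed list of 75 symbols, some of them older and newer names of the same gene, of which 62 symbols with 63 identifiers are in the table. In GFP+ Pdgfrα+ against GFP- Pdgfrα+ cells 8 were higher and 5 lower (3.22% and 2.13% of all genes). The common target genes account for 7 of the 8 rises, with 15 identifiers in the table, among them *Col1a1*, *Acta2* and *Runx2*, which are also in the marker lists, and *Runx2* is counted under 2 identifiers. In GFP+ Pdgfrα- against GFP- Pdgfrα- cells 47 were higher and 4 lower (30.1% and 23.6% of all genes), in GFP+ Pdgfrα+ against GFP+ Pdgfrα- cells 24 and 14 (13.1% and 11.1%), and in GFP- Pdgfrα+ against GFP- Pdgfrα- cells 45 and 5 (32.9% and 26.8%). Any difference among the populations was called for 57 of the 63 identifiers, against 66% of all genes.

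Of the target genes, *Acta2* had values of 21.1 and 23.2 in GFP- Pdgfrα-, 584 and 623 in GFP+ Pdgfrα-, 11.5 and 14.4 in GFP- Pdgfrα+ and 73.3 and 46.4 in GFP+ Pdgfrα+ cells and was 4.63-fold higher in GFP+ Pdgfrα+ than GFP- Pdgfrα+ cells (log2 difference 2.1, adjusted p = 0.000196). *Tgfbi*, which is named for its induction by TGF-β, had values of 10.2 and 10.02 in GFP- Pdgfrα-, 12.5 and 13.5 in GFP+ Pdgfrα-, 365 and 346 in GFP- Pdgfrα+ and 83.3 and 78.3 in GFP+ Pdgfrα+ cells. It moved the other way, 4.4-fold lower in GFP+ Pdgfrα+ cells (log2 difference -2.12, adjusted p = 2.91e-05). The gene of myostatin, *Mstn*, had values of 0.144 and 0.118 in GFP- Pdgfrα-, 41.9 and 44.4 in GFP+ Pdgfrα-, 16.3 and 10.8 in GFP- Pdgfrα+ and 1.52 and 2.16 in GFP+ Pdgfrα+ cells. It was 7.37-fold lower in GFP+ Pdgfrα+ than GFP- Pdgfrα+ cells (log2 difference -2.34, adjusted p = 0.00308), 23.5-fold lower in GFP+ Pdgfrα+ than GFP+ Pdgfrα- cells (log2 difference -3.97, adjusted p = 1.14e-05), and at least 47.1-fold higher in GFP+ Pdgfrα- than GFP- Pdgfrα- cells (log2 difference 5.29, adjusted p = 1.70e-07). *Mstn* lost the call against GFP- Pdgfrα+ cells without GFP- Pdgfrα+ replicate 1 (adjusted p = 0.0529), with 0.000985 to 0.0529 over alternatives. Muscle markers were highest in the same GFP+ Pdgfrα- libraries, and their part in the result was not tested. *Runx2* had a log2 difference of 2.36 in GFP+ Pdgfrα+ against GFP- Pdgfrα+ cells at its main identifier (adjusted p = 0.000181 in limma).

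Among the regulators, the BMP coreceptor gene *Rgmb* was 72.3-fold higher in GFP+ Pdgfrα- than GFP- Pdgfrα- cells (log2 difference 5.58, adjusted p = 2.76e-09). *Chrdl2*, which encodes a chordin-like antagonist, was 18.3-fold lower in GFP+ Pdgfrα+ than GFP+ Pdgfrα- cells (log2 difference -3.77, adjusted p = 3.66e-05), whereas *Chrdl1* was 38.1-fold higher there (log2 difference 4.46, adjusted p = 1.25e-05). The GFP+ Pdgfrα- libraries had *Chrdl1* values of 0.364 and 1.93, and its log2 difference was 3.91 to 5.70 over alternatives. *Dcn*, whose product decorin binds TGF-β, was 43.3-fold higher in GFP+ Pdgfrα+ than GFP+ Pdgfrα- cells (log2 difference 5.42, adjusted p = 6.51e-09) and 62.9-fold higher in GFP- Pdgfrα+ than GFP- Pdgfrα- cells. The fibrillin gene *Fbn1*, which anchors latent complexes, was 71.6-fold higher in GFP- Pdgfrα+ than GFP- Pdgfrα- cells (log2 difference 6.27, adjusted p = 3.90e-09), whose libraries had values of 22.0 and 56.0 (log2 difference 5.61 without replicate 1 and 6.92 without replicate 2). On log2(value + 1), the largest falls from GFP- Pdgfrα- cells were those of *Lrrc33*, whose product holds latent TGF-β on myeloid cells (13.7-fold lower in GFP- Pdgfrα+ and 8.36-fold lower in GFP+ Pdgfrα- cells), and of the deubiquitinase gene *Usp15* (8.13-fold lower and 5.38-fold lower).

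The promoters of Id genes are shown because all 4 rose in GFP+ Pdgfrα- and GFP- Pdgfrα+ cells relative to GFP- Pdgfrα- cells. These genes are also direct targets of BMP-activated Smads. Sequences are from RefSeq on GRCm38.p6 and cover 250 bases before the annotated start, so Smad sites farther away were not searched. The table holds 50 promoters for 40 of the 56 members and none for *Id1*. Searched on both strands were GGCGCC, a motif bound by BMP-activated Smads, and CAGAC with its reverse complement GTCTG, the Smad3 and Smad4 box. GGCGCC is in 9.59% of all 32851 promoters of this length and in 12 of the 50 member promoters, and CAGAC or GTCTG in 42.2% and in 22 of 50. Capitals mark the matches, of which none overlap here, and a match describes letters and not a bound site. *Id2* (chr12:25096093-25096342, minus strand) has GGCGCC 231 bases before the start, *Id3* (chr4:136143572-136143821, plus strand) has CAGAC or GTCTG 167 and 68 bases before it, and *Id4* (chr13:48260866-48261115, plus strand) has GGCGCC 148 bases before it.
Id2: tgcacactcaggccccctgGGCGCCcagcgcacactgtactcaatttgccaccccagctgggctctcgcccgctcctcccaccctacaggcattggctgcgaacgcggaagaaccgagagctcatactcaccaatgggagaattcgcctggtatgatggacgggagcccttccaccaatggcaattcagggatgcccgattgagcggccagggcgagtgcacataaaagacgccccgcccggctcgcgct
Id3: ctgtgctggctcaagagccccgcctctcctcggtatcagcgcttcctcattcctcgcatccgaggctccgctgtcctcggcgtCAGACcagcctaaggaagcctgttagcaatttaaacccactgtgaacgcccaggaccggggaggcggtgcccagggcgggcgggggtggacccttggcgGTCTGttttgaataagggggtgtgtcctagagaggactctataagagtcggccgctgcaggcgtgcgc
Id4: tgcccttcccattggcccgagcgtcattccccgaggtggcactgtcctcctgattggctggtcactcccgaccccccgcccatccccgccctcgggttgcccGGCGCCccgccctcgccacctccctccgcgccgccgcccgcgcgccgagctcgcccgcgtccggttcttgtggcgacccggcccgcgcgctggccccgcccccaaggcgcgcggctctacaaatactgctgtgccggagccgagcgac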

How the data were processed

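Total RNA of sorted cells was amplified and sequenced. The authors trimmed reads with cutadapt, counted them with RSEM 1.17 against NCBIM37 and Ensembl 65, and deposited a normalised, linear signal for 15880 genes in 8 libraries. The deposited signal is the reads plus 0.5 per 1e6 of the effective library size, and reads recovered from it were whole for 100% of values (tolerance 0.01). Under the filter that the authors state, 1645 of these genes would not be kept, and they were tested here. Positions and exon lengths come from GENCODE M1.

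The values were taken as log2(value + 1) and fitted in limma 3.58.1 (R 4.3.3, empirical Bayes with a mean-variance trend) for 4 populations and 8 libraries, with Benjamini-Hochberg adjustment over 15880 genes and a threshold of 0.05. Other steps used matplotlib 3.10.9, scipy 1.17.1, pandas 2.3.3 and numpy 2.4.6 under Python 3.11.15, and the fits were tested on simulated data. On the recovered reads, edgeR 4.0.16 called 893 genes between the Pdgfrα+ populations, 8415 between the Pdgfrα-, 3586 between the GFP+ and 9281 between the GFP- populations, 6644 in the interaction and 10084 for any difference. A replicate number was treated as a pool of littermates, from the study's text. Across genes, residuals of libraries with the same number correlated with an r of 0.00433 to 0.0812, so replicate was left out of the fit and used as a block in an alternative.

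Alternatives were limma without the trend, a pseudocount of 0.1, a low-value filter, centring, quantile normalization, limma voom, edgeR and leaving out each library. Scaling without mitochondrial and erythroid genes and leaving out the GFP- Pdgfrα- population were added after seeing the data. That scaling divides by the plain sum of the remaining reads and so also drops the normalisation factors within the effective library sizes. Named genes were up to 4 members with the largest called rise and fall in each comparison and the 2 with the highest mean in each role, and for the other pathway genes the 2 largest in each direction. Members and lists were chosen with earlier results of these data known.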

Additional observations from a re-analysis of the deposited data

Results flagged for a closer look

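For 42 of the members named in the report, the GFP difference among Pdgfrα+ cells and that among Pdgfrα- cells were themselves different, tested as the interaction in limma with an adjusted p-value up to 0.05, which called 19.1% of all genes above 0 and 25.2% below. The interaction in log2 was -5.83 for *Tgfb3*, -5.15 for *Bmp4*, -5.00 for *Tgfb2*, -4.58 for *Bmpr1a*, -4.15 for *Ltbp4*, -4.12 for *Fst*, -4.03 for *Acvr1*, -3.96 for *Id1*, -3.90 for *Chrd*, -3.82 for *Bmp6*, -3.76 for *Ltbp3*, -3.61 for *Fstl1* and -3.57 for *Gdf6*. It was -3.52 for *Id3*, -3.49 for *Bmp1*, -3.41 for *Smad1*, -3.08 for *Acvr2a*, -3.07 for *Id2*, -2.85 for *Ltbp1*, -2.80 for *Tgfbr2*, -2.67 for *Acvr1b*, -2.54 for *Inhba*, -2.53 for *Bmpr1b*, -2.49 for *Smad4*, -2.36 for *Ltbp2* and -2.31 for *Acvrl1*. Smaller negative values were -2.26 for *Bmpr2*, -2.15 for *Tgfbr3*, -2.13 for *Bmp5*, -2.05 for *Acvr2b*, -2.00 for *Bmper*, -1.87 for *Fstl3*, -1.86 for *Nog*, -1.85 for *Smad5*, -1.83 for *Smad3*, -1.75 for *Tgfbr1*, -1.64 for *Gdf11* and -0.96 for *Smad2*. For these 38 the difference between GFP+ and GFP- cells was more positive among Pdgfrα- cells.

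Above 0, it was 1.52 for *Gdf10*, 1.84 for *Bmp8a*, 2.13 for *Gdf3* and 4.69 for *Tgfb1*. All of these values include the GFP- Pdgfrα- libraries with their mitochondrial and erythroid reads, whose part in the result was not tested. Some lost the call, with adjusted p-values in parentheses and their range over all alternatives. *Acvr2b* lost it without GFP- Pdgfrα+ replicate 1 (0.0527), range 0.00708 to 0.0527. *Bmp8a* lost it without GFP- Pdgfrα- replicate 2 (0.179), GFP+ Pdgfrα- replicate 2 (0.180), GFP- Pdgfrα+ replicate 1 or 2 (0.0788 and 0.129) or GFP+ Pdgfrα+ replicate 1 (0.135), range 0.0148 to 0.409. *Bmper* lost it without GFP- Pdgfrα- replicate 1 (0.0639), GFP+ Pdgfrα- replicate 2 (0.104), GFP- Pdgfrα+ replicate 1 or 2 (0.0535 and 0.0920) or GFP+ Pdgfrα+ replicate 1 (0.0892), range 0.00288 to 0.104. *Bmpr1b* lost it without GFP- Pdgfrα- replicate 1 (0.0687), GFP+ Pdgfrα- replicate 1 (0.104), GFP- Pdgfrα+ replicate 1 (0.0817) or GFP+ Pdgfrα+ replicate 1 (0.0850), range 0.00838 to 0.104. *Fstl3* lost it without GFP- Pdgfrα+ replicate 2 (0.0566), range 0.00499 to 0.0876. *Gdf10* lost it without GFP- Pdgfrα- replicate 1 (0.0529), GFP- Pdgfrα+ replicate 2 (0.0693) or GFP+ Pdgfrα+ replicate 2 (0.0571), range 0.00312 to 0.0693. *Gdf11* lost it without GFP- Pdgfrα- replicate 1 (0.107), GFP+ Pdgfrα- replicate 1 or 2 (0.0609 and 0.114), GFP- Pdgfrα+ replicate 1 or 2 (0.0514 and 0.119) or GFP+ Pdgfrα+ replicate 1 or 2 (0.0514 and 0.0920), range 0.00566 to 0.158. *Nog* lost it without GFP- Pdgfrα- replicate 2 (0.0688), GFP+ Pdgfrα- replicate 1 (0.0632) or GFP- Pdgfrα+ replicate 2 (0.0585), range 0.0111 to 0.109. *Smad2* lost it without GFP+ Pdgfrα- replicate 2 (0.0663), GFP- Pdgfrα+ replicate 1 (0.0855) or GFP+ Pdgfrα+ replicate 2 (0.0730), range 0.00793 to 0.154. The call was also lost without the trend for *Bmp8a* (0.0543), *Bmper* (0.0574) and *Smad2* (0.0546), with a pseudocount of 0.1 for *Bmp8a* (0.30), in voom for *Bmp8a* (0.409) and *Gdf3* (0.0675), in edgeR for *Bmp8a* (0.224) and *Gdf3* (0.177), with scaling without mitochondrial and erythroid genes for *Bmp8a* (0.0916), with quantile normalization for *Bmper* (0.0920), *Fstl3* (0.0876), *Nog* (0.109), *Gdf11* (0.158) and *Bmpr1b* (0.0717) and with centring for *Nog* (0.0592), *Gdf11* (0.0900) and *Smad2* (0.154). For *Gdf3* the range is 0.00196 to 0.177.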

How the results depend on the processing

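All called differences of the 56 members and of 11 other pathway genes, 218 in number with the interaction, were recomputed under each alternative. Of the 3753 values, 3553 kept their direction and call, 200 kept their direction but missed the threshold and 0 changed direction. These misses fell on 49 of the 218. With the replicate block, 218 of 218 kept their call. The block gave 11 called members between the Pdgfrα+ populations, with 924 calls over all genes against 849 in the main fit. With the low-value filter, 213 of the 213 that could be tested kept it, and without the GFP- Pdgfrα- population 51 of 52, where *Gdf6* missed it.

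The count of 10 members between the Pdgfrα+ populations varied the most of the member counts. It was 5 without the mean-variance trend and 5 with a pseudocount of 0.1, while calls over all genes went from 849 to 532 and 595, and the cause was not tested. Leaving out 1 library at a time gave 1 to 14 members for that comparison. Each of these fits has fewer degrees of freedom, whether its count fell or rose, and the cause of the changes was not tested. The member counts of the other comparisons and for any difference moved by smaller shares, and calls over all genes moved as well. Between the Pdgfrα+ populations the count was 15 in limma voom and 12 in edgeR (1085 and 893 over all genes). Relative to the 10, voom lost *Gdf6* and gained *Bmp7*, *Fst*, *Fstl1*, *Inhba*, *Ltbp1* and *Tgfb3*. Limma without GFP- Pdgfrα- replicate 1 or 2 gained these except *Inhba*, and edgeR gained *Bmp7*, *Fst*, *Inhba* and *Tgfb3*.

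Alternatives other than leaving out a library ended some calls of members. Between the Pdgfrα+ populations *Tgfb2*, *Gdf6*, *Ltbp3* and *Bmp1* were lost without the trend and with the pseudocount, *Tgfbr2* without the trend and 1 member not described with the pseudocount. There edgeR lost *Gdf6* and 1 member not described. In GFP+ Pdgfrα- against GFP- Pdgfrα- cells centring and quantile normalization lost *Bmp3*, *Nog* and *Smad6*, and quantile normalization also *Bmper*, *Acvrl1* and *Bmpr1b*. In GFP- Pdgfrα+ against GFP- Pdgfrα- cells both lost *Id1*, *Gdf1*, *Smad7*, *Acvr2b* and 1 member not described, centring also *Smad2* and quantile normalization *Fstl3*. Voom lost *Bmp3*, *Bmper* and *Smad6* in GFP+ Pdgfrα- against GFP- Pdgfrα- cells, and edgeR *Gdf1* in GFP- Pdgfrα+ against GFP- Pdgfrα- cells. In GFP+ Pdgfrα+ against GFP+ Pdgfrα- cells *Nog* was lost in edgeR, *Bmp8a* with the pseudocount and *Tgfb2* without the trend.

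Scaling moved all genes. Centring shifted the median log2 difference of all genes by -0.454 in GFP+ Pdgfrα- against GFP- Pdgfrα- cells, -0.452 in GFP- Pdgfrα+ against GFP- Pdgfrα- cells and 0.426 in the interaction, and quantile normalization by -0.297, -0.326 and 0.253. Scaling without mitochondrial and erythroid genes shifted it by 0.109, -0.105 and -0.136 in these and by -0.275 in GFP+ Pdgfrα+ against GFP+ Pdgfrα- cells. In this scaling, the part of the left-out genes was not separated from that of the dropped normalisation factors. With quantile normalization, 35 members were higher and 5 lower in GFP+ Pdgfrα- against GFP- Pdgfrα- cells, 44 and 2 in GFP- Pdgfrα+ against GFP- Pdgfrα- cells, and 6 and 33 in the interaction. Over all 15880 genes, that setting called 3871 higher and 4419 lower, 4249 and 5086, and 3307 and 3306 in the same order.

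With 3221217 to 5302762 reads on genes per library, *Bmp8b*, *Bmp15*, *Gdf1*, *Gdf3* and *Nog* rest on few reads.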
